A study of Mus musculus with 12 samples.

Results

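Nascent-Seq signal was examined for 7 genes that make bile acids, sense them or pump them into bile in the mouse liver: Cyp7a1, Cyp27a1, Cyp8b1, Cyp7b1, Nr1h4, Nr0b2 and Abcb11. They were taken by name, with earlier results of these data known, from the 21490 gene symbols of the deposited table, and all 7 were found. Livers came from adult male C57BL/6 mice, 3 to 6 months old, kept for at least 2 weeks in 12 hr of light and 12 hr of darkness, and all groups shared this strain, housing and lack of treatment. The groups were the 6 zeitgeber times ZT0 (lights on), ZT4, ZT8, ZT12 (lights off), ZT16 and ZT20, each with 2 replicate libraries, 12 in all. Nascent RNA is RNA still held on chromatin by the transcribing polymerase, and its amount was given in reads per base pair of merged exons (rpbp). Because rpbp is per length, exon length is taken into account where levels are set side by side between genes. The paper describes a gradient of signal along many genes. The part of gene length and of exon base composition in differences in level between genes was not tested.

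Bile acids are made from cholesterol in hepatocytes, by a classical route that Cyp7a1 opens and an alternative route that Cyp27a1 and Cyp7b1 serve. Cyp8b1 acts after Cyp7a1 and sets how much cholic acid is formed. FXR, the nuclear receptor encoded by Nr1h4, binds bile acids and induces SHP, the product of Nr0b2, which represses the synthesis genes, while BSEP, the product of Abcb11, exports bile salts across the canalicular membrane. Bile acid synthesis in rodents is known to follow the daily cycle of feeding and of the liver clock.

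Of the 7 genes, 3 were rhythmic by an unadjusted permutation p, against 15.1% of all tested genes, and 0 by an adjusted one. Cyp7a1 and Cyp27a1 were highest at lights off and Abcb11 was highest late in the night. Nr0b2 was lowest at ZT16 and highest by day in its time-point means, but was not called with all 12 libraries. The time-point means of Cyp7a1 spanned 12.1-fold, those of Nr1h4 ran from 44.7 to 67.2 rpbp.

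The promoters of Cyp27a1, Nr0b2 and Abcb11 are shown because these genes carry the time courses described here, and because FXR, the clock and the nuclear receptor LRH-1 (Nr5a2) act on genes of this pathway through short DNA motifs. Each is the 250 bases before the gene's start in the table, read from NCBIM37, the same build as mm9, on the strand of the gene. Capitals mark matches to the motifs searched, and positions count back from -1, the base before the start. Cyp27a1 is on the plus strand of chromosome 1 and its window is chr1:74759898-74760147, Nr0b2 is on the plus strand of chromosome 4 with chr4:133109055-133109304, and Abcb11 is on the minus strand of chromosome 2 with chr2:69180674-69180923.
Cyp27a1: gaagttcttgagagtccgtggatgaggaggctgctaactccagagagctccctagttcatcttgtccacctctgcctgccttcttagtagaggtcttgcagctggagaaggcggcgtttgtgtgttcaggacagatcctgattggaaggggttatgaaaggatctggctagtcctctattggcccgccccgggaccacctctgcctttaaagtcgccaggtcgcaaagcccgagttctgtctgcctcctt
Nr0b2: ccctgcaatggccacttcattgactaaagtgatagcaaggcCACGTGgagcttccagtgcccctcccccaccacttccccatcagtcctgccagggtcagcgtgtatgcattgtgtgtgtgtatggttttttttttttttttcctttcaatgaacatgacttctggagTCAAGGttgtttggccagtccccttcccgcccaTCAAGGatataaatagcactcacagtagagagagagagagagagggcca
Abcb11: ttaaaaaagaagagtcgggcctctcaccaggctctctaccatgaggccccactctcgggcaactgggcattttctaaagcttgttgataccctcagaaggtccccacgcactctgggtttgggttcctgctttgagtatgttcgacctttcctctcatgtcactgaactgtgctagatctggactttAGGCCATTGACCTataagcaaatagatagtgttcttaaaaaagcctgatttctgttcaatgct

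The Abcb11 window held AGGCCATTGACCT at positions -63 to -51. This is the inverted repeat AGGTCANTGACCT, the type of site that FXR binds together with RXR, with at most 1 base off. Of 22375 protein-coding promoters of the same length, 11 (0.049%) held such a match on either strand. Its second arm, TGACCT, is also a match on the minus strand to the single site AGGTCA, which 12.6% of the promoters held. The Nr0b2 window held the E-box CACGTG, the core motif bound by CLK:BMAL1, at -209 to -204, as 6.52% of promoters did. It also held TCAAGG, the first bases of the LRH-1 site, at -82 to -77 and at -49 to -44. Of the promoters, 12.0% held TCAAGG. The windows of Cyp27a1, Cyp8b1, Cyp7b1 and Nr1h4 held no match to these motifs or to the D-box TTANGTAA (2.02% of promoters), which says only that these letters are not in these windows. The motif list was settled with the sequences in view, and a match is a description of letters.

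All 7 genes are annotated as protein-coding, and no other symbol of the table overlapped any of them. In mm9, Cyp7a1 spans chr4:6192759-6202778, Cyp8b1 spans chr9:121823474-121825410, Cyp27a1 spans chr1:74760148-74784464 and Cyp7b1 spans chr3:17971950-18143329. Nr1h4 spans chr10:88917123-88996330, Nr0b2 spans chr4:133109305-133112451 and Abcb11 spans chr2:69076339-69180673. The exons behind the signal differ widely, in number from the 1 exon of Cyp8b1 to the 29 merged exons of Abcb11, and in merged length from 1132 bases in Nr0b2 to 5046 in Abcb11.

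The libraries had summed signals of 118342 to 160545 rpbp, and because the table is already scaled the read depth behind each value cannot be read from it. The paper lists the uniquely mapped reads of each library, which were most at ZT8 and ZT20. Of the 6 hepatocyte markers 5 exceeded 6 rpbp in some library, with a summed level of 631 to 1864 rpbp. None of the 5 cholangiocyte markers in the table did (sum 1.00 to 2.50 rpbp, with Cftr listed at 0 in 10 of 12 libraries), nor did the 5 stellate cell markers (sum 8.10 to 12.9 rpbp). The 5 Kupffer cell markers summed to 16.2 to 66.6 rpbp, with the highest value in replicate 1 of ZT8, the 4 endothelial markers to 10.7 to 22.4 rpbp and the 4 blood cell markers in the table to 2.50 to 8.70 rpbp. Replicate 2 of ZT16 stood lowest among the libraries, with a median gene at -0.205 on the log2 scale relative to the mean over libraries. The clock-driven genes Nr1d1 and Dbp had phases of ZT6.22 and ZT8.38, which checks the time labels. Both libraries of ZT8 and both of ZT20 were run in 2 lanes and the other 8 in 1 lane, so lanes and these time points cannot be told apart. In bulk liver, fewer cells of a type and less RNA per cell cannot be told apart either.

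Averaged over the 12 libraries, Cyp27a1 had the highest signal at 60.0 ± 34.7 rpbp (SD, n = 12), above that of 97.5% of the 6284 tested genes. Nr1h4 followed at 57.6 ± 11.6, Abcb11 at 51.5 ± 24.0 and Cyp8b1 at 43.8 ± 17.1 rpbp. Cyp7a1 stood at 24.8 ± 21.2, Cyp7b1 at 24.3 ± 15.5 and Nr0b2 at 15.6 ± 9.33 rpbp, the last above 83.1% of tested genes. Neighbours in this order differed by less than the SD of at least 1 of them. The widest step was from Cyp8b1 to Cyp7a1, 18.9 rpbp, and Cyp8b1 was the higher in 9 of 12 libraries. Relative to its mean, Cyp7a1 varied most, with a coefficient of variation of 0.852, larger than that of 97.0% of tested genes. Nr1h4 varied least at 0.201, larger than that of 30.4%.

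**Figure D1:**
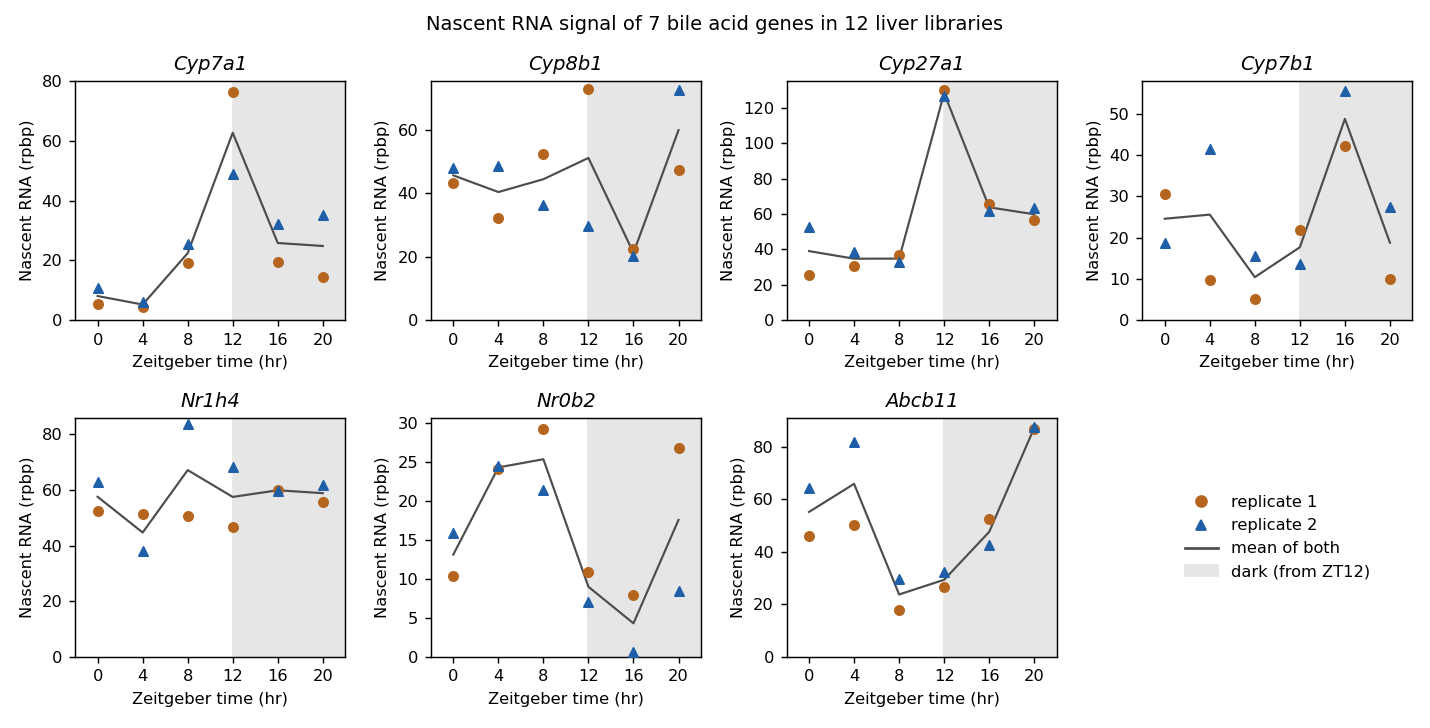
Nascent RNA signal in rpbp (vertical axis, from 0) against zeitgeber time in hr for the 7 genes, 1 panel each. Points are the replicate 1 and replicate 2 libraries, lines join their means and grey marks darkness: both ZT12 libraries of Cyp27a1 (129.9 and 126.6 rpbp) stand over all others, and Nr1h4 has no time point at which both libraries stand apart.

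Rhythm was measured by F24, the share of the variance over the 12 values that a 24-hr cosine takes up, from 0 to 1. A gene counted as rhythmic if its one-sided permutation p was under 0.05, its F24 exceeded 0.45 and its highest library exceeded its lowest by more than 1.5 times, and as strongly rhythmic if F24 exceeded 0.6 and that ratio 7/4. Genes that exceeded 6 rpbp in some library were tested, 6284 in all, of which 952 (15.1%) were rhythmic and 401 (6.38%) strongly so. All 7 genes passed the 6 rpbp limit. Cyp7a1, Cyp27a1 and Abcb11 (3 of 7) were rhythmic, and Cyp7a1 and Abcb11 strongly so. With 1 library left out, F24 fell as low as 0.547 for Cyp7a1 and 0.571 for Abcb11, under the limit of 0.6. F24 calls kept or lost below are rhythmic calls, not strong ones. None of the 7 genes had an adjusted permutation p under 0.05, which 48 of the 6284 tested genes had. The median F24 was 0.479 over the 7 genes and 0.222 over all tested genes. A moderated F-test in limma, on log2(rpbp + 1), asked whether the 6 time points differed in any way, and 7.65% of tested genes had an adjusted p under 0.05. The same 3 of the 7 genes passed this test. With no threshold on low values their limma adjusted p were 0.0714 for Cyp7a1, 0.0659 for Cyp27a1 and 0.0868 for Abcb11.

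**Figure D2:**
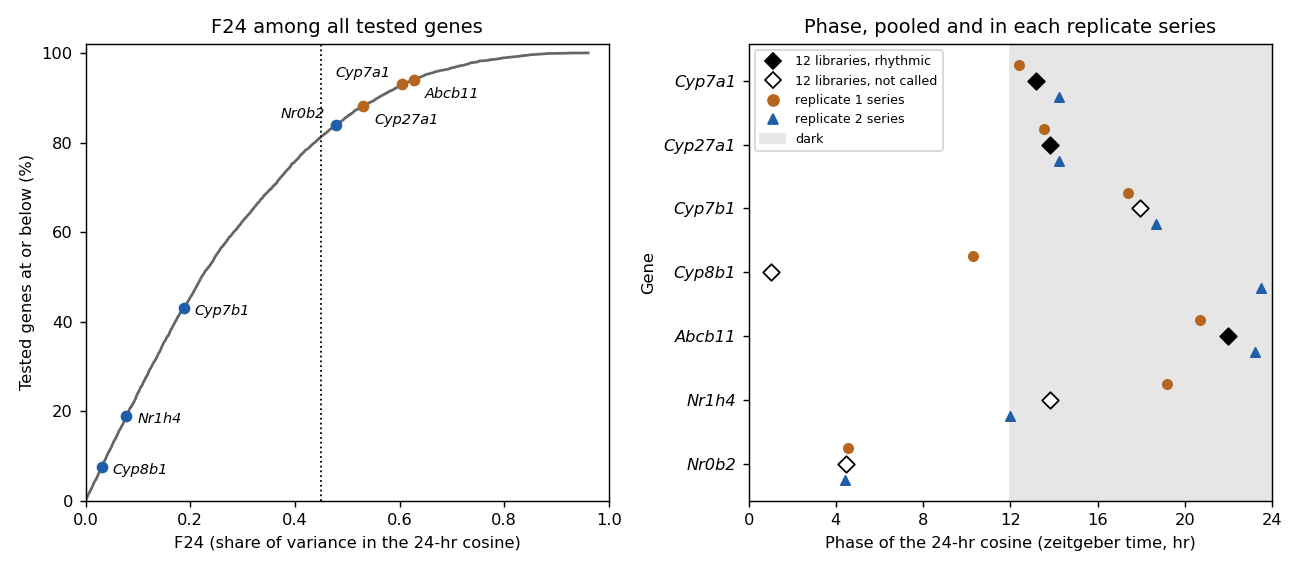
Left, percentage of the 6284 tested genes at or below each F24, with the 7 genes marked (orange, rhythmic, and blue, not called) and a dotted line at F24 of 0.45. Right, phase of the 24-hr cosine in hr for all 12 libraries (diamonds, filled where rhythmic) and for each replicate series of 6 libraries (circles and triangles), with darkness in grey. The phases of the series differ little for Nr0b2 (4.57 and 4.41 hr) and widely for Cyp8b1 (10.3 and 23.5 hr). For Nr0b2 F24 was 0.22 in series 1 (permutation p = 0.6) and 0.97 in series 2 (permutation p = 0.0333). For Cyp8b1 F24 was 0.20 and 0.52 (permutation p = 0.767 and 0.333).

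Cyp7a1, the rate-limiting enzyme of the classical route, rose to 76.4 and 49.0 rpbp in replicates 1 and 2 of ZT12. It was at 5.40 and 10.7 rpbp at ZT0, 4.30 and 6.10 at ZT4, 19.2 and 25.6 at ZT8, 19.4 and 32.2 at ZT16, and 14.4 and 35.2 at ZT20. Both ZT12 libraries were above the 10 others, and the 4 libraries of ZT0 and ZT4 were below the 8 others. The 24-hr cosine gave F24 = 0.604 with a phase of ZT13.2 (permutation p = 0.00547, adjusted p = 0.132), and the phase stayed within 12.6 to 13.6 hr when any 1 library was left out. The call was kept in all 12 of those fits. Between time points the F-test gave an adjusted p of 0.0142 with limma. 

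Time points 12 hr apart were compared in the same limma fit, where 4.44% of tested genes differed between ZT0 and ZT12 and 2.85% were higher at ZT12. Of the 7 genes, 2 were higher at ZT12, Cyp7a1 and Cyp27a1. The summed hepatocyte markers had means of 961 rpbp at ZT0 and 1618 rpbp at ZT12, and their part in these differences was not tested. For Cyp7a1 the difference ZT0 minus ZT12 was -2.85 ± 0.44 (SE) on the log2(rpbp + 1) scale, 7.19-fold (limma, adjusted p = 0.00733). Without replicate 1 of ZT0 it was -2.41 (adjusted p = 0.0956), and without replicate 1 of ZT12 it was -2.53 (adjusted p = 0.0668). Between ZT4 and ZT16, 2.1% of tested genes differed and 0.764% were higher at ZT16. Cyp7a1 was the 1 of the 7 among them, with ZT4 minus ZT16 at -2.08 ± 0.44 (SE) and a limma adjusted p of 0.0433. That call was lost when genes above 3 rpbp were tested (adjusted p = 0.0512) and in 9 of the 12 fits that left out 1 library, with adjusted p up to 0.198, and was kept without replicate 1 of ZT16 and without either library of ZT20. ZT8 minus ZT20 in Cyp7a1 was -0.03 ± 0.44 (SE). The exons of Cyp7a1 are AT-rich (39.7% GC, at the 4.90th percentile of tested genes), and genes of that GC content were 0.693 higher on the log2 scale in replicate 2 of ZT8 than their mean over libraries. With the GC trend removed F24 was 0.589 (permutation p = 0.00128).

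Cyp27a1, a mitochondrial sterol hydroxylase that opens the alternative route, was at 129.9 and 126.6 rpbp at ZT12. The other time points had 25.6 and 52.4 rpbp at ZT0, 30.8 and 38.6 at ZT4, 36.9 and 32.6 at ZT8, 65.8 and 61.7 at ZT16, and 56.4 and 63.2 at ZT20. Both ZT12 libraries were above the 10 others, and all 4 libraries of ZT16 and ZT20 were above the 6 of ZT0, ZT4 and ZT8. Of the variance over the 12 libraries 96.7% lay between time points, while the cosine took up F24 = 0.531 (phase ZT13.8, permutation p = 0.0173, adjusted p = 0.199). The rhythmic call was lost without replicate 1 of ZT0 (F24 = 0.482, permutation p = 0.0595) and without replicate 1 of ZT4 (F24 = 0.495, permutation p = 0.0520). The F-test had an adjusted p of 0.0181 with limma, and 0.0725 or 0.0714 without replicate 1 or 2 of ZT12. ZT0 minus ZT12 was -1.78 ± 0.29 (SE), 3.43-fold higher at ZT12 (limma, adjusted p = 0.00881). Leaving out replicate 1 of ZT0, or replicate 1 or 2 of ZT12, gave adjusted p of 0.0587, 0.0645 and 0.0514. ZT4 minus ZT16 was -0.87 ± 0.29 (SE) and ZT8 minus ZT20 was -0.77 ± 0.29 (SE), with limma adjusted p of 0.154 and 0.273.

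Cyp8b1, the hydroxylase that directs intermediates to cholic acid, had no 24-hr component that passed the test (F24 = 0.0311, permutation p = 0.859). Its libraries were at 43.2 and 48.0 rpbp at ZT0, 32.2 and 48.5 at ZT4, 52.4 and 36.4 at ZT8, 72.7 and 29.5 at ZT12, 22.3 and 20.1 at ZT16, and 47.2 and 72.5 at ZT20. Both ZT16 libraries were below the 10 others, while the ZT12 pair differed from each other by 146% of the lower value. The F-test gave an adjusted p of 0.202 with limma. ZT4 minus ZT16 was 0.87 ± 0.39 (SE), with an adjusted p of 0.259. The summed hepatocyte markers were also lowest at ZT16 and highest at ZT20, with means of 743 and 1724 rpbp, and their part in the values of Cyp8b1 was not tested.

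Cyp7b1, the hydroxylase of the alternative route that acts on oxysterols, was highest at ZT16, with 42.1 and 55.4 rpbp. It was at 30.5 and 18.6 rpbp at ZT0, 9.60 and 41.5 at ZT4, 5.20 and 15.6 at ZT8, 21.8 and 13.5 at ZT12, and 10 and 27.5 at ZT20. Both ZT16 libraries were above the 10 others, by a margin of under 1 rpbp over replicate 2 of ZT4, and the libraries of ZT4 differed from each other by 332% of the lower value. Neither F24 (0.188, permutation p = 0.385) nor the F-test (adjusted p = 0.266 with limma) passed. ZT4 minus ZT16 was -1.22 ± 0.68 (SE). The 2 genes of the alternative route were thus highest at different time points, ZT12 and ZT16, and that difference was not tested.

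A time point with both libraries above the 10 others was found for 4 of the 7 genes, Cyp7a1, Cyp27a1, Cyp7b1 and Abcb11, against 19.8% of tested genes. A time point with both below the 10 others was found for 1 of 7, Cyp8b1, against 18.3% of tested genes.

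**Figure D3:**
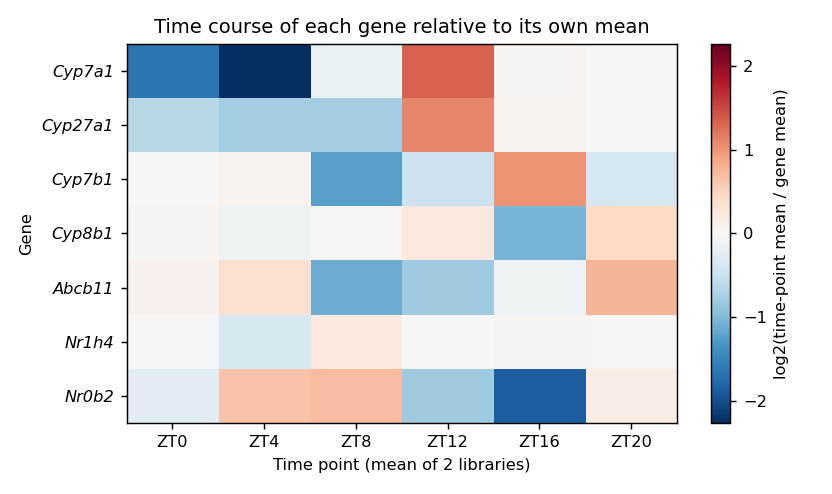
Mean of the 2 libraries at each time point divided by the mean of the gene over all 12 libraries, on a log2 colour scale (red, above the mean of the gene, and blue, below it). Cyp7a1 runs from 0.209 times its mean at ZT4 to 2.53 times at ZT12, Nr0b2 from 0.275 times at ZT16 to 1.62 times at ZT8.

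The classical enzymes were set against each other within each library, where a scaling factor of the library cancels but a GC trend does not. In replicate 2 of ZT8 genes in the GC bin of Cyp7a1 stood at 0.693 and those in the bin of Cyp8b1 at -0.355 on the log2 scale relative to their means over libraries, and in replicate 1 of ZT12 they stood at -0.341 and 0.16. The part of these trends in the ratios was not tested. Cyp7a1 was at 0.125 and 0.223 of the Cyp8b1 signal at ZT0, 0.134 and 0.126 at ZT4, 0.366 and 0.703 at ZT8, 1.05 and 1.66 at ZT12, 0.870 and 1.60 at ZT16, and 0.305 and 0.486 at ZT20. The 4 libraries of ZT12 and ZT16 had a higher ratio than the 8 others, and the 4 of ZT0 and ZT4 a lower one. By time-point means Cyp7a1 was highest at ZT12 and Cyp8b1 lowest at ZT16. The 4 enzymes together summed to 300.8 and 218.6 rpbp at ZT12, against 76.9 and 134.7 at ZT4. Cyp27a1 was the highest of the 4 in 6 libraries and Cyp8b1 in the 6 others.

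**Figure D4:**
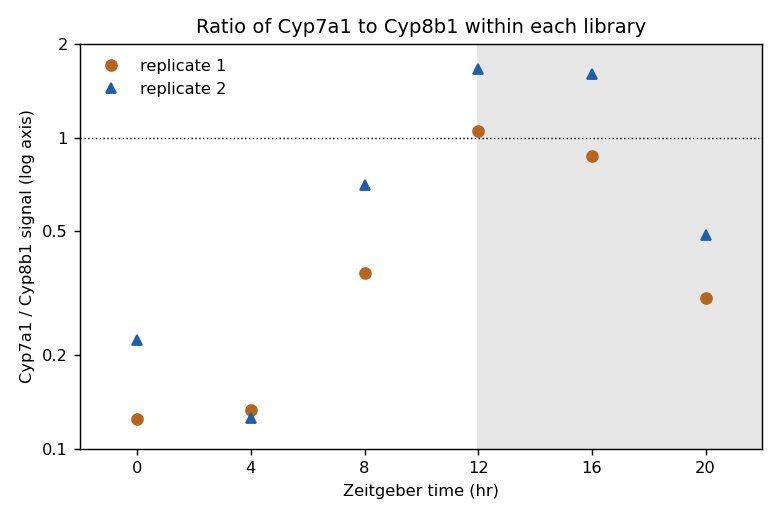
Ratio of the Cyp7a1 to the Cyp8b1 signal within each library (log axis) against zeitgeber time in hr, with 1 point per library, darkness in grey and a dotted line at a ratio of 1. The ratio runs from 0.125 in replicate 1 of ZT0 to 1.66 in replicate 2 of ZT12.

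Nr1h4, which encodes FXR, was the steadiest of the 7 genes. Replicates 1 and 2 were at 52.3 and 62.8 rpbp at ZT0, 51.4 and 38.0 at ZT4, 50.6 and 83.7 at ZT8, 46.8 and 68.2 at ZT12, 60.0 and 59.8 at ZT16, and 55.8 and 61.9 at ZT20. Both ZT4 libraries were below both libraries of ZT0, ZT16 and ZT20, the ranges of the other time points overlapped each other, and the replicates of ZT8 differed from each other by 65.4% of the lower value. F24 was 0.0783 (permutation p = 0.715) and the F-test had an adjusted p of 0.643 with limma. The 3 comparisons 12 hr apart gave differences of 0.02, -0.43 and 0.15 on the log2(rpbp + 1) scale, each ± 0.28 (SE). These errors do not show that its transcription was constant.

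Nr0b2, which encodes SHP, had 10.4 and 15.9 rpbp at ZT0, 24.2 and 24.5 at ZT4, 29.3 and 21.5 at ZT8, 10.9 and 7.10 at ZT12, 8 and 0.6 at ZT16, and 26.8 and 8.40 at ZT20. The 4 libraries of ZT4 and ZT8 were above the 4 of ZT12 and ZT16, and the libraries of ZT20 lay one with each set. F24 was 0.479 with a phase of ZT4.46, over the F24 limit, but the permutation p was 0.0622 (adjusted p = 0.333), so the gene was not called. Without replicate 1 of ZT20, the library with the highest summed signal, F24 was 0.830 (permutation p = 0.00205, phase ZT5.46). Without replicate 1 of ZT0 it was 0.570 (permutation p = 0.0459). With all 12 libraries rescaled to a common median gene F24 was 0.471 (permutation p = 0.0649). On the log2(rpbp + 1) scale the permutation p was 0.0292, and with lanes as a block 0.0140. The F-test had an adjusted p of 0.119 with limma.

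ZT4 minus ZT16 in Nr0b2 was 2.74 ± 0.70 (SE), 6.68-fold, with a limma adjusted p of 0.0762. With the libraries rescaled to a common median gene this difference was 2.59 (limma, adjusted p = 0.104). Replicate 2 of ZT16, at 0.6 rpbp, was the library with the lowest median gene. Without it the difference was 1.49 (adjusted p = 0.228), and without replicate 1 of ZT16 it was 3.99 (adjusted p = 0.00611). By time-point means Nr0b2 was lowest at ZT16, 4 hr after the maximum of Cyp7a1, and highest at ZT8, 4 hr before it.

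**Figure D5:**
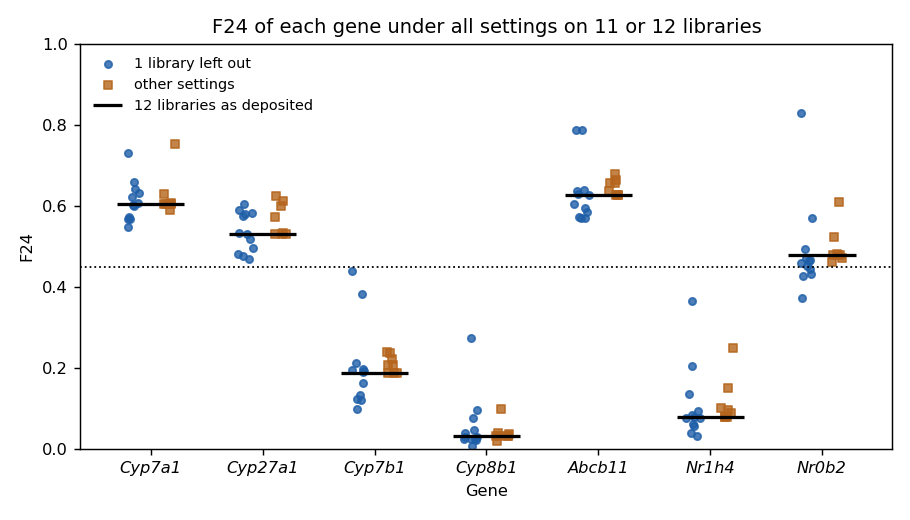
F24 of the 7 genes (vertical axis, 0 to 1) with all 12 libraries as deposited (bars), with 1 library left out (blue circles, 12 per gene) and under the other settings on 12 libraries (orange squares), with a dotted line at F24 of 0.45. Nr0b2 spans 0.374 to 0.830 when 1 library is left out, while Cyp7a1 (0.547 to 0.731) and Abcb11 (0.571 to 0.789) stay over the line.

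Abcb11, which encodes the bile salt export pump, rose from ZT8 to ZT20. It was at 46.0 and 64.4 rpbp at ZT0, 50.1 and 81.7 at ZT4, 17.7 and 29.8 at ZT8, 26.5 and 32.2 at ZT12, 52.5 and 42.7 at ZT16, and 86.9 and 87.6 at ZT20. Both ZT20 libraries were above the 10 others, and the 4 libraries of ZT8 and ZT12 were below the 8 others. F24 was 0.628 with a phase of ZT22.0 (permutation p = 0.0160, adjusted p = 0.192), and the call was kept with any 1 library left out. The phase was ZT20.7 in series 1 and ZT23.2 in series 2. Between ZT8 and ZT20, where 1.58% of tested genes differed and 1.16% were higher at ZT20, Abcb11 was the 1 of the 7 that differed. ZT8 minus ZT20 was -1.88 ± 0.31 (SE), 3.68-fold (limma, adjusted p = 0.0185).

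The lowest and highest time points of Abcb11 were the 2 that were sequenced in 2 lanes. When values were centred and permuted within the lane groups, F24 was 0.638, against 0.628 without groups, but the permutation p was 0.0762. The call was thus lost, while Cyp7a1 (p = 0.0121) and Cyp27a1 (p = 0.0331) kept theirs in that permutation test. The 2-lane group has only 4 libraries to permute and held both extremes of Abcb11. With so few orders the test cannot tell lanes from these time points. The difference between ZT8 and ZT20 itself lies within libraries of 2 lanes. It was between -1.52 and -1.88 without replicate 1 of ZT8 or either library of ZT20, with limma adjusted p of 0.115, 0.135 and 0.113. The F-test had an adjusted p of 0.0270 with limma. It missed the limit without replicate 1 of ZT0, either library of ZT12 or either library of ZT20, at 0.0515 to 0.0717. The summed hepatocyte markers were highest at ZT20 as well, and their part in the Abcb11 values was not tested. ZT0 minus ZT12 was 0.88 ± 0.31 (SE), with a limma adjusted p of 0.150.

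The 3 rhythmic genes peaked at 2 times of day, Cyp7a1 and Cyp27a1 at ZT13.2 and ZT13.8 and Abcb11 at ZT22.0. In the single series the phases were ZT12.4 and ZT14.2 for Cyp7a1 and ZT13.5 and ZT14.2 for Cyp27a1, so the gap between these genes was smaller than that between series. Abcb11 was at 8.52 and 6.02 times the Cyp7a1 signal at ZT0 and at 11.7 and 13.4 times at ZT4, and at 0.347 and 0.657 times at ZT12.

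Around these genes, 41 other genes of the pathway were listed and all were in the table, Slc51a and Slc51b under their older names Osta and Ostb. Of these 32 were tested and 11 were rhythmic, against the 15.1% of all tested genes. Their median F24 was 0.323. The others, Cyp39a1, Cyp46a1, Ch25h, Abcc4, Atp8b1, Osta, Ostb, Gpbar1 and Vdr, stayed at or under 6 rpbp.

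Among uptake and export genes 5 of 9 tested were rhythmic, against 15.1% of all tested genes, and all 5 had phases by day. How common phases by day were among all rhythmic genes was not counted. The paper reports that transcription of very few genes is highest at ZT16 to ZT20. Abcb4, the phospholipid floppase that accompanies bile salts into bile, had F24 = 0.666 and a phase of ZT3.25. Abcg5 and Abcg8, partners in the canalicular sterol exporter, had F24 of 0.734 and 0.608 and phases of ZT6.43 and ZT5.95, with highest values 10.2 and 8.70 times the lowest. Abcc2, the canalicular exporter of conjugates, had F24 = 0.599 at ZT6.15 and a mean of 149.9 rpbp. Abcc3, its basolateral relative, had F24 = 0.525 at ZT1.95. The calls of Abcb4, Abcg5 and Abcg8 were kept with any 1 library left out, that of Abcc2 in 10 of 12 fits and that of Abcc3 in 4 of 12. Slc10a1, the main bile salt uptake transporter, had F24 = 0.493 at ZT3.00 and a permutation p of 0.0608. The phase of Abcb11, ZT22.0, lay in the night and those of these 5 exporters by day, and the differences in phase were not tested.

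Among synthesis and conjugation genes 3 of 11 tested were rhythmic, against 15.1% of all tested genes. Slc27a5, the ligase that activates bile acids for conjugation, had F24 = 0.615 at ZT11.8. Slc27a2, a very long chain acyl-CoA synthetase, had F24 = 0.723 at ZT8.83 and a mean of 146.7 rpbp. Hsd3b7, the dehydrogenase that follows the first hydroxylations, had F24 = 0.553 at ZT23.0, and its call was kept in 8 of 12 fits with 1 library left out, against all 12 for the ligase and the synthetase. Baat, which joins bile acids to taurine and glycine, had F24 = 0.316 and a permutation p of 0.183.

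Among regulators 3 of 12 tested were rhythmic, against 15.1% of all tested genes. Nr1i2, the xenobiotic receptor PXR, had F24 = 0.462 at ZT12.3, Mafg, a small MAF repressor, had 0.547 at ZT10.9, and Foxa2, a liver forkhead factor, had 0.517 at ZT2.12. These calls were kept in 4, 10 and 2 of the 12 fits with 1 library left out. Nr5a2 (LRH-1), Hnf4a and Rxra had permutation p of 0.474, 0.369 and 0.161.

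The tested genes most like each of the 7 over the 12 libraries were ranked by Pearson's r of log2(rpbp + 1), as a description only, since the libraries share time points and scaling and the highest of all tested genes were taken. Cyp7a1 was most like the clock gene Per1 (r = 0.918) and Sult1a1 (0.906), and Cyp27a1 most like Trp53inp2 (0.961) and Sec14l4 (0.929). Abcb11 was most like Clock (0.943) and Insc (0.925). Nr0b2 was most like Elavl1 (0.953, and 0.874 after the libraries were rescaled) and Uox (0.950). Cyp8b1 was most like Ctso (0.850) and G6pc (0.845), Cyp7b1 like AK158295 (0.880) and Serpina4-ps1 (0.875), and Nr1h4 like BC005537 (0.862) and Tmem33 (0.851). Per1 was highest in replicate 2 of ZT12 at 30.4 rpbp and Sult1a1 in replicate 1 of ZT12 at 40.6 rpbp, the time point at which Cyp7a1 was highest. Clock was highest in replicate 2 of ZT20 at 16.2 rpbp, the time point at which Abcb11 was highest. Insc was highest in replicate 2 of ZT4 at 15.4 rpbp. Genes picked for a high r share most of a time course by that choice.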

How the data were processed

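The 12 Nascent-Seq libraries of mouse liver, 6 time points with 2 replicates each, were grouped by the time label. Per the labels and the study's methods, the authors processed reads with CASAVA 1.7, aligned them to mm9 with TopHat and kept unique reads. The deposited signal is coverage per base of merged exons (rpbp) without strand, scaled to the same number of reads and rounded to 1 decimal. Blank lines (27919) were dropped. The deposited rhythm statistics of the authors were not used. F24 was tested with 100000 permutations (20000 with no threshold), and log2(rpbp + 1) with limma 3.58.1 in R 4.3.3, both over all 6284 genes above 6 rpbp, with Benjamini-Hochberg adjustment. Both tests were run on simulated data in which every gene had the same spread and libraries had no GC or scaling trend, unlike here. Contrasts shared one estimate of spread. Exon GC (98.9% of tested genes) and promoters came from NCBIM37 with GENCODE M1. The table and labels do not say whether each library came from 1 animal, so p-values measure the spread between libraries. Named were all 7 genes with every value, each rhythmic gene of the pathway list (with Slc10a1, Baat, Nr5a2, Hnf4a and Rxra added after their values were seen), and the 2 most alike genes of each. Genes, lists and tests were chosen with earlier results of these data known. One promoter sequence is not reported here.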

Additional observations from a re-analysis of the deposited data

How the results depend on the processing

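Cyp7a1, Cyp27a1 and Abcb11 were the 3 rhythmic genes above 3 rpbp (13.6% of all tested genes), above 12 rpbp (17.8%) and with no threshold (10.7%). They were also the 3 with rescaled libraries (15.3%) and with the GC trend removed (18.4%). With lanes as a block (19.1%) the count was 3 as well, but Nr0b2 was called and Abcb11 was not. On the log2 scale (15.7%) it was 4, with Nr0b2 added. A series of 6 libraries allows few distinct permutation p, so a count from 1 series has little power. Cyp7a1, for example, had F24 = 0.612 in series 1 (permutation p = 0.05) and 0.813 in series 2 (permutation p = 0.117). Rhythmic genes among the 7 numbered 0 in series 1 alone (4.35% of tested genes) and 1 (Nr0b2) in series 2 alone (2.73%). By adjusted permutation p they numbered 0 (3 unadjusted). Leaving out 1 library gave 2 to 4. Rhythmic pathway genes (11) numbered 2 in either series alone, 0 by adjusted permutation p (11 unadjusted), and 6 to 11 with 1 library left out, with 7 without replicate 1 of ZT4 or replicate 2 of ZT0 and 6 without replicate 2 of ZT12. With no threshold on low values the unadjusted F-test p of Cyp7a1, Cyp27a1 and Abcb11 from limma rose as well (for Cyp7a1 from 0.000218 to 0.00119), and genes differing between any time points numbered 0 (3 unadjusted), and those differing between ZT4 and ZT16 or ZT8 and ZT20 numbered 0 (3 and 2 unadjusted). Above 3 rpbp, 0 differed between ZT4 and ZT16 (4 unadjusted). With 1 library left out, genes differing numbered 1 to 4 between any time points, 0 to 2 between ZT0 and ZT12, 0 to 2 between ZT4 and ZT16 and 0 to 1 between ZT8 and ZT20. There a lone library was assumed to vary like the other groups.

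Libraries with the same replicate number shared part of their deviations between some time points. Over 15 pairs of time points the correlation of deviations ran from -0.117 to 0.32 (median 0.073), and 5 were over 0.1. With the replicate block 3 of the 7 genes and 8 of 32 tested pathway genes were rhythmic, against 15.5% of all tested genes. In limma with that block, 3 of the 7 differed between any time points and 2 between ZT0 and ZT12. Between ZT4 and ZT16 1 of the 7 differed, and between ZT8 and ZT20 also 1. The limma shares over all tested genes, 7.65%, 4.44%, 2.1% and 1.58% without the block, were not counted with it. Of 458 values for single genes under alternatives, 412 kept their side of the limit, 39 fell short of it and 7 newly passed, and no difference between time points that was followed changed sign. With 2 libraries per time point and no read counts, the precision of each mean rests on their number.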
